A study of Homo sapiens with 59 samples.

Results

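The 3.0 Mb interval chr19:37500001-40500000 (hg38), in band 19q13.2 and its neighbourhood, holds the genes SELENOV and DLL3, whose starts lie 16.2 kb apart. Its members are all deposited peaks that lie in it: 15809 of 4391449 peaks over 51 libraries, of which 8193 passed the thresholds of the study (log2 fold over input above 1 and FDR under 0.05; 4007021 peaks of the series did). No peak crossed a bound, and 122955 peaks lay on the rest of chromosome 19. The interval was chosen by position around SELENOV and DLL3 with results of these peak lists in view. Which measured values (peak reads, peak lengths or input counts) led to it is not recorded, so the levels below are a description and the tests between treatments are not independent of that choice. Interval against rest of chromosome is given with no test.

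NCI-H661 is a line from a human lung large cell carcinoma that expresses DPPA2 and DPPA4, small DNA-binding proteins of early embryos. The lines shDPPA2, shDPPA4 and shDPPA2+4 carry doxycycline-inducible miR30-type hairpins on PiggyBac vectors and are sorted bulk populations. They were given doxycycline (DOX, 2 µg/ml for 7 days) or water (H2O), with 2 libraries per line, treatment and target for H3K4me3, H3K27me3 and H2AK119ub. No line with a non-targeting hairpin was among the samples analysed here, so effects of DOX itself cannot be told apart from the knockdown. Parental cells carried no hairpin and were given A-485 (10 µM for 1 day), which blocks histone acetylation by p300 and CBP, or its solvent DMSO, with 2 libraries each for H3K27ac and H2AK119ub, 3 each for H3K27me3, and 1 DMSO library for SUZ12. Replicates are biological ones by the study's methods, while the labels do not say whether their cultures were separate, so p-values measure the spread between these libraries. Libraries held 390762 to 19379794 reads in filtered peaks. Of the markers examined, the promoters of EPCAM, KRT8, KRT18, VIM, DPPA2 and DPPA4 were under H3K4me3 in 12 of 12 libraries, and those of the blood markers PTPRC and CD3E in 0.

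H3K4me3 is a histone mark of active or poised promoters and H3K27ac one of active promoters and enhancers. H2AK119ub is placed by Polycomb complex PRC1 and H3K27me3 by PRC2, of which SUZ12 is a core subunit. Both are known from genes held in a repressed or poised state. In these cells the paper also reports H2AK119ub at active promoters with H3K4me3 and without H3K27me3. SELENOV encodes a selenoprotein known from testis, and DLL3 a Notch ligand that acts inside the cell and is known from neuroendocrine lung tumours. The interval is gene-rich, with 89 protein-coding starts (29.7 per Mb, against 24.9 per Mb on the rest of the chromosome). Among them are genes of protein synthesis, kinases, zinc finger genes, the interferon lambda genes and 7 galectin genes, lectins that bind galactosides, some of which are placental or eosinophil proteins.

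The 250 bases upstream of 5 starts (RefSeq, GRCh38.p14) are shown 5′ to 3′ because they stand for the mark patterns described below. SELENOV and TTC9B were under H3K4me3 and SUZ12, with H3K27me3 in some libraries. ZFP36 was among the strongest promoters for H3K4me3, H3K27ac and H2AK119ub, without H3K27me3 or SUZ12. LGALS13 was under H3K27me3, and IFNL1 under neither H3K4me3 nor H3K27me3. All 5 had H2AK119ub in at least 12 of 16 libraries. Capitals mark each CpG, the bases C and G in that order on the printed strand.
SELENOV, chr19:39514889-39515138, plus strand: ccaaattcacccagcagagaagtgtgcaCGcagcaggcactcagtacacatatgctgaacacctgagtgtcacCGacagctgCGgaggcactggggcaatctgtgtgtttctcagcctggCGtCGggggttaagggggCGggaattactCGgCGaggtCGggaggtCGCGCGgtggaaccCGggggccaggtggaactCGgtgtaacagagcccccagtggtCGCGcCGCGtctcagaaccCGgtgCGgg
TTC9B, chr19:40218385-40218634, minus strand: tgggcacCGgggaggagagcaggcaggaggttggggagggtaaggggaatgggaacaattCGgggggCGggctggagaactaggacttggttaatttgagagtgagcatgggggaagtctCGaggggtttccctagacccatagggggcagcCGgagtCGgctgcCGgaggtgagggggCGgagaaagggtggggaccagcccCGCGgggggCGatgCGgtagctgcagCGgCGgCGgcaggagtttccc
ZFP36, chr19:39406597-39406846, plus strand: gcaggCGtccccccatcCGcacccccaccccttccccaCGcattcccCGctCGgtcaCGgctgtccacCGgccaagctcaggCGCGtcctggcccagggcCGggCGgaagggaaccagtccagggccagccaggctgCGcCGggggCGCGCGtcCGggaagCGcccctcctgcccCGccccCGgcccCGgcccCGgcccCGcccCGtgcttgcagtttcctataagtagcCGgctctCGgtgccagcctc
LGALS13, chr19:39602274-39602523, plus strand: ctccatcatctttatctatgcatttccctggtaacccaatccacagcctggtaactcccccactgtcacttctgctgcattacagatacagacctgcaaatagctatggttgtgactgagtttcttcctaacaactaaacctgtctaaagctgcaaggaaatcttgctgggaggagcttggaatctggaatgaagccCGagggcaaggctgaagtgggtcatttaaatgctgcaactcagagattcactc
IFNL1, chr19:39296157-39296406, plus strand: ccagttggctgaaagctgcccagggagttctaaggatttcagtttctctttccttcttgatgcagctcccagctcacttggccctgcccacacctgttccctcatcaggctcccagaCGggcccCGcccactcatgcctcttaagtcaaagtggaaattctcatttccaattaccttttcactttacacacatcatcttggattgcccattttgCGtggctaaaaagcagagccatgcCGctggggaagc
The counts of CpG in these windows were 20 for SELENOV, 15 for TTC9B, 26 for ZFP36, 1 for LGALS13 and 4 for IFNL1. Of 15344 promoters in the same table, 43.8% held at least as many as SELENOV, 58.3% as many as TTC9B and 26% as many as ZFP36, whereas 7.89% held no more than LGALS13 and 19.7% no more than IFNL1. Over the 75 of 89 genes of the interval that the table holds, promoters under H3K4me3 in every library had a median of 21 CpG (range 4 to 40, 55 genes), and those under H3K4me3 in no library a median of 4 (range 1 to 21, 18 genes), so that the ranges overlapped. The same medians over all other genes were 22 and 4. A CpG count is a description of the letters, not a binding site.

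Input DNA was denser under the peaks of the interval than elsewhere on chromosome 19. Each peak list gives the input reads under each peak, and input reads per kb of filtered peak in the interval were 2.22 times those on the rest of the chromosome (median of 51 libraries). The ratio was 2.65 to 2.91 in H3K4me3 libraries and 2.29 to 3.09 in H3K27ac libraries, and 1.34 in the SUZ12 library. In 100 kb bins, each relative to the median bin of the chromosome, the interval's 26 bins with a value had a median of 2.62 (range 1.62 to 3.5), against 0.958 over the 319 bins of the rest of the chromosome (range 0.532 to 2.34). The densest bin, at 3.5, holds the start of DLL3.

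**Figure D1:**
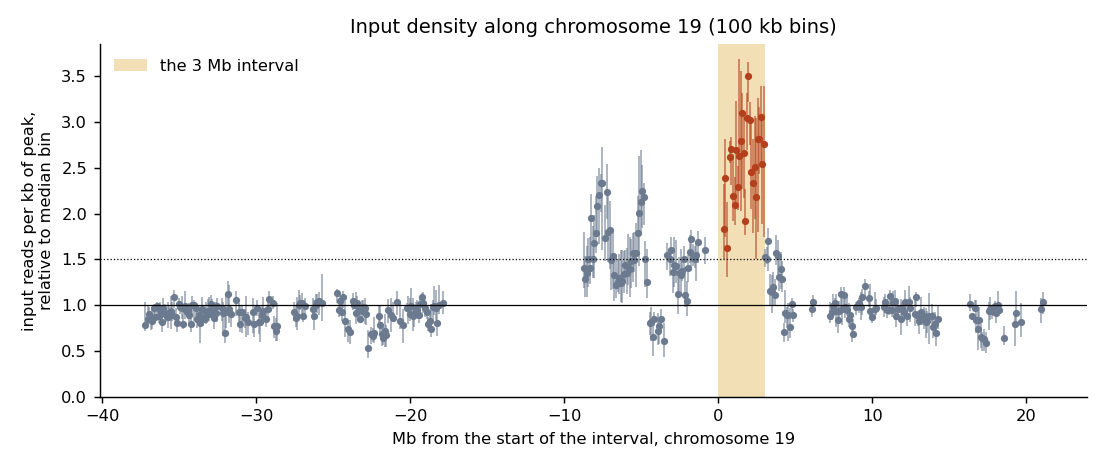
Input reads per kb of filtered peak in 100 kb bins along chromosome 19 (points: median over libraries; bars: quartiles), relative to the chromosome's median bin, against the distance in Mb from the interval's start. Bins of the interval lie between 1.62 and 3.5, and lower raised runs lie before it; the dotted line is the 1.5 used to define a run.

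A raised run, defined as successive bins at 1.5 or above, extended over chr19:37800001-40800000. Its first gene start was that of ZNF573, a zinc finger gene, and its last was that of EGLN2, an oxygen-sensing prolyl hydroxylase. ZNF607 has the last gene start before the run. The 100 kb bins between the interval's start and the run's start had no value, so the run's proximal end is not a measured boundary. Bins of 25 kb there, with 2 to 21 libraries each, ranged from 0.993 to 2. The density fell near the interval's distal bound: the last 20 bins of the interval had a median of 2.68, the next 3 bins 1.53 and the following 9 bins 1.29. SPTBN4 has the last gene start in the interval and SHKBP1 the first after it. Raised runs of lower density lay at 29.2 to 30.7 Mb (median 1.82) and 31.9 to 32.8 Mb (median 1.9). Over the genome in 500 kb bins, the interval's 6 bins ranged from 1.85 to 3.03 and 5 of them ranked 6 to 9 and 11 of 4118. The bins above them lay on chromosome 14 from 34.0 to 37.0 Mb, with up to 5.76, a stretch that holds NKX2-1, a lung lineage transcription factor. Input density follows the number of DNA copies but also mappability and open chromatin, and copy number itself was not measured.

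The lists share 8 input libraries. Lists called against the same input gave equal counts at 100% of shared peaks, against at most 41.7% for other pairs. By these counts, H3K27ac A-485 replicate 4 had been called against the DMSO input and H3K27ac DMSO replicate 4 against the A-485 input. Whether the inputs or the labels of these 2 libraries were exchanged cannot be told apart. With exchanged labels, the replicate 4 values would stand under the other treatment in each H3K27ac comparison of A-485 with DMSO below.

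Fewer deposited peaks of the interval than of the rest of chromosome 19 passed the thresholds. The fold of a peak is set against the input beneath it, and of the interval's deposited peaks 51.8% passed. For H2AK119ub the median over 16 libraries was 44.5% in the interval (18.1 to 62.6%), against 86.6% on the rest of chromosome 19, for H3K27ac 55.6% against 90.7%, for H3K27me3 60.8% against 93.3%, and for H3K4me3 85% against 98.6%. The median log2 fold over input was 0.94 in the interval against 1.86 on the rest of chromosome 19 for H2AK119ub, and 3.3 against 4.4 for H3K4me3. A promoter without a filtered peak could still hold a deposited one: this was so for 69.8% of the unmarked promoter values in DOX and 83.6% in H2O libraries of H2AK119ub, and for 7.19% in DOX and 2.48% in H2O libraries of H3K4me3. Values of 0 below mean that no filtered peak was called, not that no read was there.

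Filtered peaks nonetheless covered more of the interval than of the rest of chromosome 19 for most targets. Medians were 18.6% against 6.98% for H2AK119ub, 12.2% against 2.94% for H3K27ac and 10.2% against 6.11% for H3K4me3. For H3K27me3 the interval had 6.72%, against 7.61%. ChIP reads per covered kb were 1.77 times those of the rest for H3K4me3 (range 1.61 to 1.91), 1.29 times for H2AK119ub (1.16 to 1.65) and 1.45 times for H3K27me3 (1.09 to 2.05).

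Promoters were taken as 1500 bp on each side of a start and called marked with at least 300 bp under filtered peaks. H3K4me3 marked 60 of the 89 promoters in all 12 libraries (67.4%, against 66% of other genes), 23 in none and 6 in some. H3K27ac marked 37 in all 4 libraries (41.6%, against 34.6%) and 8 in none (8.99%, against 27.7%). H2AK119ub varied most between libraries: it marked 85 of 89 in some but not all of 16 libraries (95.5%, against 68.6% of other genes). In all 16 it marked only BLVRB, a biliverdin reductase, and SPTBN4, a spectrin of axons (2.25%, against 6.98% of other genes). H3K27me3 marked 72 of 89 in none of 18 libraries (80.9%, against 76.7% of other genes) and 1, LGALS13, in all (1.12%, against 2.54%). SUZ12 marked 9 of 89 (10.1%, against 11.3%): C19orf33, FBXO17, IFNL2, RPS16, SUPT5H, SELENOV, LGALS16, LGALS14 and TTC9B. This rests on 1 library with 1539 reads in the interval. Its 5 strongest promoters had 0.875 to 1.89 ChIP reads per input read, not scaled by depth.

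**Figure D2:**
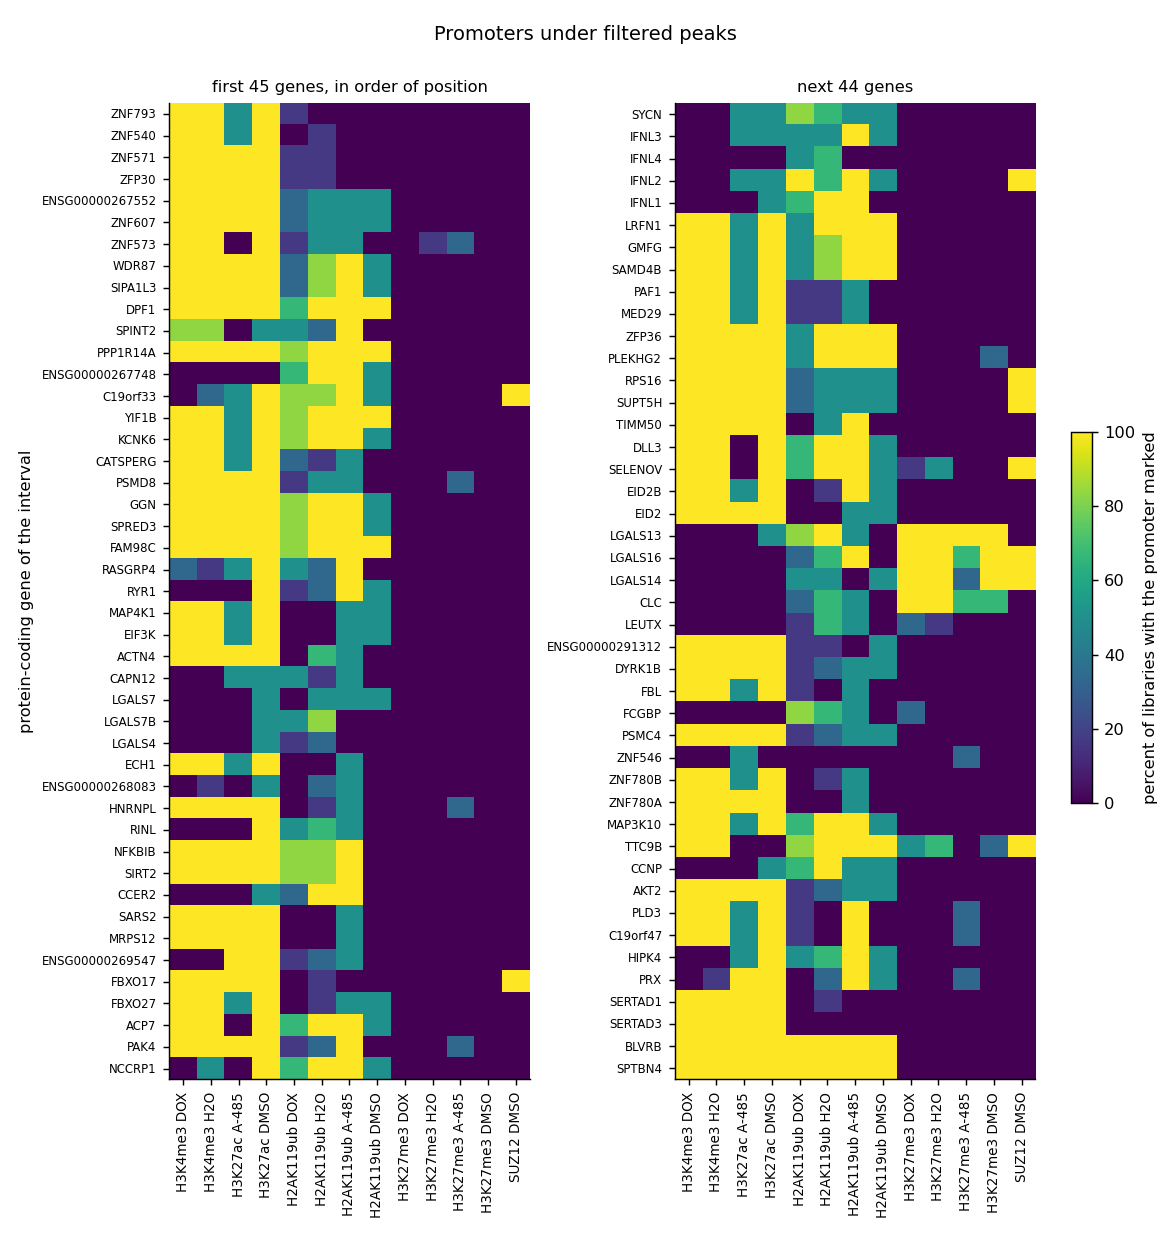
Percent of libraries in which each of the 89 protein-coding promoters of the interval was marked, by target and treatment, with genes in order of position down each panel and target and treatment along the x axis. H3K4me3 fills 60 rows, H3K27me3 fills the LGALS13 row in every column, and H2AK119ub is partly filled in 85 rows.

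The gene lists differed in their marks. All 8 genes of protein synthesis and turnover (PSMD8, PSMC4, RPS16, EIF3K, FBL, SARS2, MRPS12 and TIMM50) were under H3K4me3 in 12 of 12 libraries, as were all 3 of transcription elongation and Mediator (PAF1, SUPT5H and MED29), 9 of 10 zinc finger genes (not ZNF546) and 5 of 6 kinases (not HIPK4). Among signalling and cytoskeletal genes 7 of 9 were, with SPINT2 and RASGRP4 marked in some libraries. Of 12 nerve, muscle and testis genes 9 were, including SELENOV, DLL3, TTC9B, the potassium channel gene KCNK6 and the synaptic adhesion gene LRFN1, whereas RYR1, the calcium release channel of skeletal muscle, and SYCN, a pancreatic secretory granule gene, were in none. No galectin (0 of 7) and no interferon lambda gene (0 of 4) had H3K4me3 in any library.

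The strongest H3K4me3 promoters over the 6 H2O libraries were PLEKHG2 (454 reads per kb, range 419 to 506), ZFP36, which encodes a protein that destabilises AU-rich mRNA (447), the head-to-head pair PAF1 and MED29 (440 each), and C19orf47 (428). For H3K27ac in the 2 DMSO libraries they were ZFP36 (204), HNRNPL, a splicing regulator (190), PLEKHG2 (165), SERTAD1 (160) and SERTAD3 (146). For H2AK119ub over 8 H2O and DMSO libraries ZFP36 had the most reads, at 86.9 per kb, ahead of PLEKHG2 (68.1), TTC9B (67.9), KCNK6 (67.1) and SELENOV (64.8), but the ranges of these 5 overlapped and reads were not scaled by depth. Of the 5, KCNK6 had the most reads per input read (6.63, against 5.28 to 5.71 in the others). Of the 60 promoters with H3K4me3 in every library, 21 had H2AK119ub in at least 12 of 16, a count that was not taken over other genes. ChIP reads were not corrected for the denser input, which was 10.1 to 18.2 reads per kb at these promoters.

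DLL3 and SELENOV were marked in the same libraries for H3K4me3, H3K27ac and H2AK119ub and not for SUZ12 and H3K27me3. At DLL3 (chr19:39498895-39508481, plus strand) H3K4me3 gave, in reads per kb scaled to the library's peak reads as in RPKM, 43.8 and 32.6 in DOX and 48 and 40.4 in H2O libraries of shDPPA2, 35.5 and 40.3 in DOX and 41.3 and 46.7 in H2O libraries of shDPPA4, and 40.7 and 38.8 in DOX and 35.9 and 40.3 in H2O libraries of shDPPA2+4. The ranges of DOX and H2O libraries overlapped. At SELENOV (chr19:39515139-39520675, plus strand) it gave 21.4 to 24.7 in DOX and 21 to 28.9 in H2O libraries. H2AK119ub marked both promoters in 13 of 16 libraries, and the 3 without were shDPPA2 DOX replicate 3, shDPPA4 DOX replicate 3 and DMSO replicate 4, each of which held a deposited peak below the thresholds there. H3K27ac marked both in 2 of 2 DMSO libraries, with 25 and 60.3 reads per kb at DLL3 and 15 and 68.8 at SELENOV, and in 0 of 2 A-485 libraries. SUZ12 marked SELENOV (12.2 reads per kb, where the input had 13.9, in 1 library) and not DLL3. H3K27me3 was above the threshold at SELENOV in 3 of 6 H2O libraries, all of replicate 3, and in 1 of 6 DOX libraries, and at DLL3 in 0 of 18. A deposited peak below the thresholds lay at SELENOV in 8 of the other 14 libraries and at DLL3 in 2 of 18.

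TTC9B, a tetratricopeptide repeat gene, had H3K4me3 in 12 of 12 libraries, H2AK119ub in 15 of 16, SUZ12, and H3K27me3 in 8 of 18 (3 of 6 DOX, 4 of 6 H2O, 0 of 3 A-485 and 1 of 3 DMSO libraries), with H3K27ac in 0 of 4. A deposited H3K27me3 peak below the thresholds lay there in 9 of the other 10 libraries. Only SELENOV and TTC9B of the 60 promoters with H3K4me3 in every library had H3K27me3 in 4 or more of 18 libraries, and 51 of the 60 had it in none. The cutoff of 4 is SELENOV's own count. The same counts were not taken over other genes, so no base rate stands beside them. These libraries come from many cells, so that both marks on 1 promoter and on different copies or cells cannot be told apart.

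H3K27me3 in the interval lay mostly over the galectin genes LGALS13, LGALS16, LGALS14 and CLC, known from placenta and, for CLC, from eosinophils. A stretch was drawn from the first to the last of the 8 tested H3K27me3 regions of the knockdown lines that run around LGALS13. Its H3K27me3 share and coverage therefore follow in part from how it was drawn. The stretch, chr19:39561101-39766400 (6.84% of the interval), held a median of 87.4% of the interval's H3K27me3 peak reads (73.7 to 95.8% over 18 libraries). Filtered H3K27me3 peaks covered a median of 86.2% of it (34.2 to 96.3%). H3K4me3 had 0 filtered peaks there in 12 of 12 libraries. H2AK119ub covered a median of 22.1% of it (9.6 to 58.1%, 16 libraries) and SUZ12 27.6%, and of the SUZ12 library's reads in the interval 65% lay there. H3K27me3 at the LGALS13 promoter averaged 78.3 reads per kb over 9 H2O and DMSO libraries (30.3 to 131), at LGALS16 52.1, at CLC 48.1 and at LGALS14 39.5. In the LGALS13 promoter, the sequence shown above held 1 CpG. The 3 other galectins, LGALS4, LGALS7 and LGALS7B, had H3K27me3 in 0 of 18 libraries, as had the 4 interferon lambda genes.

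**Figure D3:**
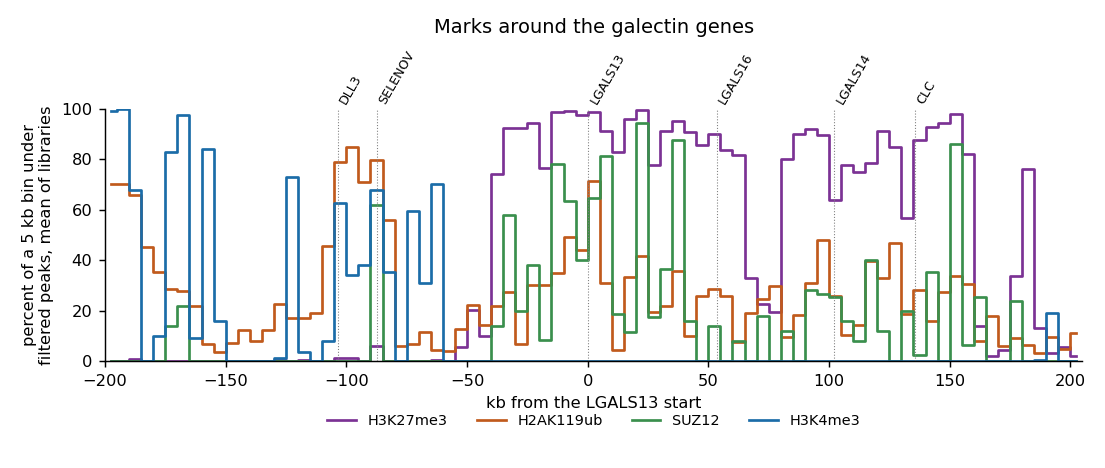
Mean percent of each 5 kb bin under filtered peaks, by target, against the distance in kb from the LGALS13 start; dotted lines mark gene starts. H3K27me3 runs at high coverage from before LGALS13 to past CLC, where H3K4me3 is at 0, and DLL3 and SELENOV lie under H3K4me3 and H2AK119ub with little H3K27me3.

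The first comparison asked how marks in the interval differed after DPPA2/4 knockdown. The share of a library's peak reads that lay in the interval was lower in DOX than in H2O for H3K4me3 in 6 of 6 pairs of line and replicate. DOX libraries had 0.751, 0.852 and 0.898% (lowest, median and highest), against 0.868, 0.911 and 0.956% in H2O libraries. The ranges overlapped, and the mean difference was -0.037 percentage points in replicate 1 alone and -0.104 in replicate 2 alone. The means were 0.837 ± 0.0676% in DOX and 0.908 ± 0.034% in H2O (SD, n = 6 each; two-sided exact sign-flip permutation test, p = 0.0312, the smallest that 6 pairs allow, adjusted p = 0.0938 over 3 targets and 2 measures). The covered length went the other way, with 317 ± 18.7 kb in DOX and 300 ± 10.7 kb in H2O libraries (SD, n = 6 each; higher in 6 of 6 pairs, exact p = 0.0312, adjusted p = 0.0938).

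Enrichment and depth moved with this. ChIP reads per input read in peaks of the rest of chromosome 19 were higher in DOX than in H2O in 6 of 6 pairs (30.8 to 54.5 in DOX, 26.4 to 37.4 in H2O libraries), and so were the reads in filtered peaks (9252289 to 19379794 in DOX, 8394879 to 10986087 in H2O). The input ratio of the interval was 2.78 to 2.91 in DOX and 2.65 to 2.78 in H2O libraries. Their part in the difference was not tested. The stretch of chromosome 14 with the densest input had 0.55% of H3K4me3 peak reads in DOX and 0.622% in H2O libraries, lower in 6 of 6 pairs (exact p = 0.0312).

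For H3K27me3 the share was 0.193 ± 0.0323% in DOX and 0.337 ± 0.126% in H2O libraries (SD, n = 6 each), lower in 5 of 6 pairs (exact permutation p = 0.0938, and 0.141 after adjustment). DOX values ran over 0.145, 0.196 and 0.239%, and H2O values over 0.203, 0.318 and 0.539% (lowest, median, highest), with an overlap. The 3 highest were the H2O replicate 3 libraries, at 0.372, 0.403 and 0.539%, whose filtered peaks held 2227464, 1748622 and 1085365 reads in shDPPA2, shDPPA2+4 and shDPPA4, whereas the DOX libraries had 5989134 to 10431794. In replicate 1 alone the mean difference was -0.0186 percentage points, against -0.269 in replicate 3. For H2AK119ub the share was 1.01 ± 0.497% in DOX and 1.56 ± 0.17% in H2O libraries (SD, n = 6 each), lower in 5 of 6 pairs (exact permutation p = 0.0938, and 0.141 after adjustment). The lowest value, 0.247%, was that of shDPPA2 DOX replicate 3. In replicate 1 alone the difference was -0.0914 and in replicate 3 alone -1.01 percentage points. Over all deposited peaks it was -0.132 percentage points (exact p = 0.688), lower in 4 of 6 pairs. Covered length was 207 ± 9.86 kb in DOX and 210 ± 17.5 kb in H2O libraries for H3K27me3 (exact p = 0.562) and 502 ± 199 kb in DOX and 685 ± 97.4 kb in H2O for H2AK119ub (exact p = 0.125, adjusted p = 0.15). Over all deposited peaks both differences changed sign, to 10.8 kb for H3K27me3 and 194 kb for H2AK119ub.

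**Figure D4:**
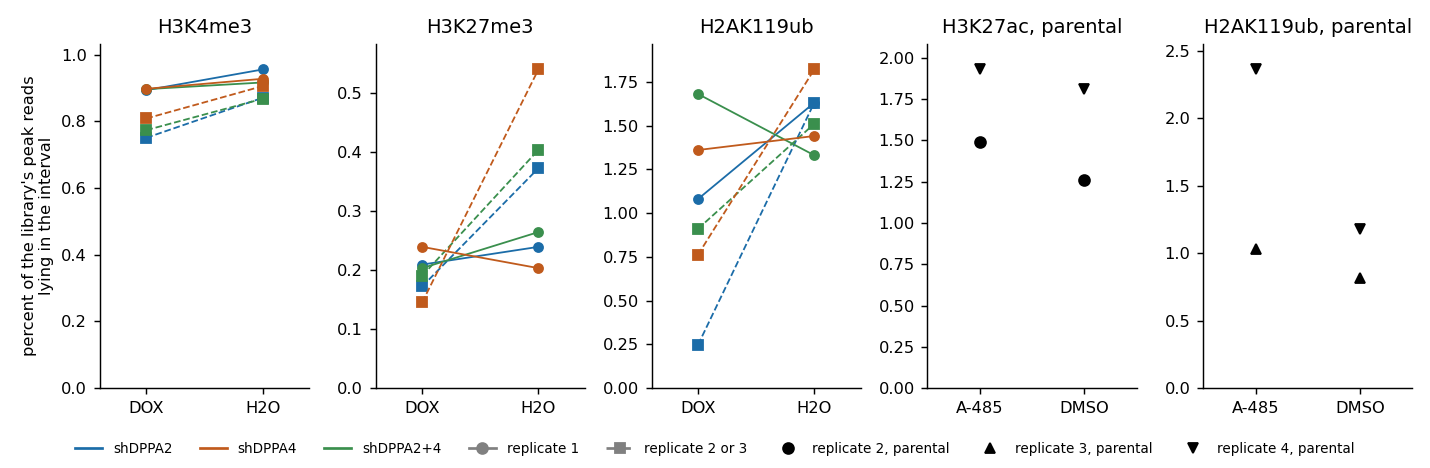
Percent of each library's reads in filtered peaks that lay in the interval, by target, with DOX left of H2O joined by line and replicate (3 panels) and A-485 left of DMSO in parental cells (2 panels). H3K4me3 is lower in DOX in 6 of 6 pairs, and the widest gaps for H3K27me3 and H2AK119ub are those of replicate 3.

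By region, most tested H3K4me3 values in the interval were slightly negative after DOX. Filtered peaks merged into 150 regions, of which 69 had a peak in all 12 libraries and a mean of at least 10 reads and were tested by edgeR's quasi-likelihood test together with all 22060 such regions of the genome. Over the mean of the 3 lines, 59 of 69 log2 fold changes were negative and their median was -0.11, against 0.00 on the rest of chromosome 19 and on other chromosomes. At adjusted p under 0.05 alone, 30 of 69 were lower (43.5%) and 1 higher, where 5.53% of all tested regions were lower and 3.35% higher. None reached the fold minimum of 0.5 on the log2 scale as well (edgeR: 0 called, 53 at unadjusted p under 0.05, and 0 by DESeq2), and 0.521% of all tested regions did. In no region did DOX and H2O libraries fail to overlap, while 28 regions were lower in 6 of 6 pairs, 18 were lower in 5 of 6, and 4 were higher in 6 of 6. The counts by pair were not taken over the other tested regions of the genome, so no base rate stands beside them. The count of 30 moved to between 13 and 40 when 1 library was left out: it was 19 without shDPPA2 H2O replicate 1, 16 without shDPPA2 H2O replicate 2, 17 without shDPPA2 DOX replicate 2, 13 without shDPPA4 H2O replicate 2, 19 without shDPPA4 DOX replicate 1 and 14 without shDPPA2+4 H2O replicate 2. It was 0 without the replicate block and 13 where a peak in 2 libraries sufficed, while the median kept its sign under each left-out library (-0.14 to -0.09).

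**Figure D5:**
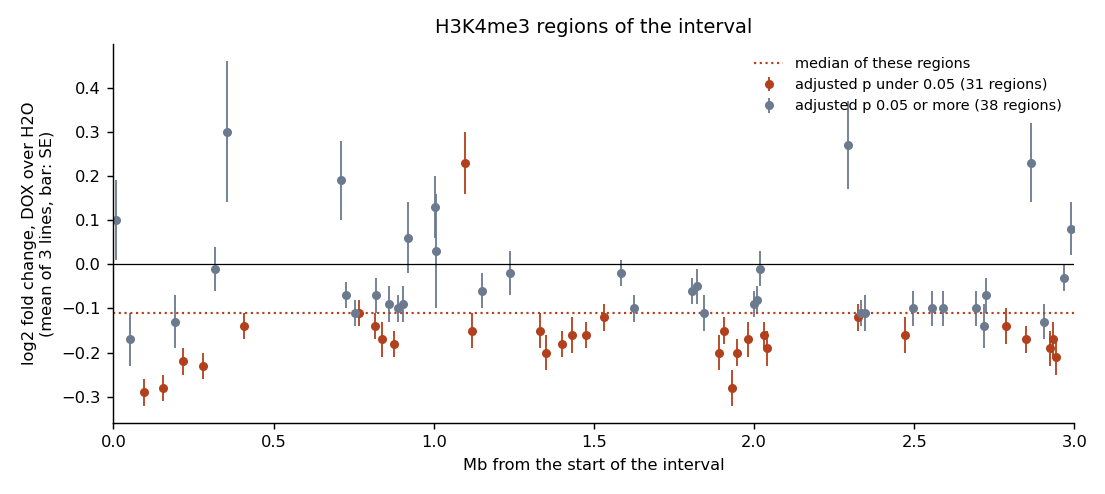
log2 fold change (DOX over H2O, mean of 3 lines, bars: SE) of the 69 tested H3K4me3 regions, against the distance of each region's centre in Mb from the interval's start. Regions past adjusted p of 0.05 are in red, 30 below 0 and 1 above, and the median is -0.11.

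The smallest p-values lay in the zinc finger genes at the proximal end. The region chr19:37645401-37662300, within ZFP30, had 202 to 266 CPM (counts per library size scaled by TMM) in DOX and 234 to 324 in H2O libraries (log2 fold change -0.28, SE 0.03, edgeR adjusted p = 0.000688). The region chr19:37589701-37598900, with the start of ZNF571, had 97.4 to 135 in DOX and 120 to 164 in H2O libraries (-0.29, SE 0.03, adjusted p = 0.000688). In both the groups overlapped. Next came chr19:37774701-37783700 within ZNF573 (-0.23, SE 0.03, adjusted p = 0.00182) and chr19:39425901-39438900, with the starts of RPS16, a ribosomal protein gene, and SUPT5H, a subunit of the elongation factor DSIF (-0.28, SE 0.04, adjusted p = 0.0038). The 1 region that was higher, chr19:38595601-38597800 in MAP4K1, holds the start of the antisense gene MAP4K1-AS1 (0.23, SE 0.07, adjusted p = 0.0412).

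Of the gene lists, protein synthesis and turnover had 7 tested regions, all with negative values and 6 lower at adjusted p under 0.05 (RPS16, PSMD8, EIF3K, SARS2 with MRPS12, TIMM50 and PSMC4, not FBL). Transcription elongation and Mediator had 2 of 2 lower (SUPT5H, and PAF1 with MED29), kinases 2 of 5 (MAP4K1 and AKT2), signalling and cytoskeleton 3 of 5 (HNRNPL, SIRT2 with NFKBIB, and ZFP36 with PLEKHG2), and zinc finger genes 3 of 9. Nerve, muscle and testis genes had 1 of 9 (CATSPERG, a sperm ion channel subunit gene), with a median of -0.07. Over all tested regions with a gene start in the interval, 24 of 47 were lower, with a median of -0.14. DLL3 and SELENOV were not among them: DLL3 had -0.09 (SE 0.03, adjusted p = 0.101), SELENOV -0.01 (SE 0.04, adjusted p = 0.873) and TTC9B -0.14 (SE 0.05, adjusted p = 0.102).

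Wide and narrow regions are given apart as a description. The 38 regions of at least 5 kb were all negative, with a median of -0.155 and 23 lower at adjusted p under 0.05, and the 31 narrower ones had a median of -0.08 with 7 lower. On the raised stretch of chromosome 14 the 29 tested regions had a median of -0.21, with 20 lower (69%). This second stretch was looked up after the values of the interval were seen.

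Within lines, medians over the 69 regions were -0.15 in shDPPA2, -0.11 in shDPPA4 and -0.09 in shDPPA2+4. By edgeR with the fold minimum 0 regions were called in each line, with 40, 24 and 22 at unadjusted p under 0.05 in that order and 0 by DESeq2 in each. Over the genome 0.0272%, 0.0363% and 0% of regions were called. At adjusted p alone, 2 regions of the interval were lower in shDPPA2, those of ZFP30 and ZNF571 (adjusted p = 0.0446 each; 0 such regions with scaling by total peak reads or without the replicate block), where 0.0499% of all regions were lower and 0% higher. In shDPPA4 the smallest p-values were again those of ZNF571 (-0.31) and ZFP30 (-0.25), and in shDPPA2+4 those within ZNF573 (-0.24) and ZFP30 (-0.22). No difference between lines passed the threshold in the interval for any of the 3 targets.

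For H3K27me3, 9 of 51 merged regions could be tested, 8 of them in the galectin stretch. All 9 had negative values, with a median of -0.56, against 0.03 on the rest of chromosome 19. None was called (edgeR, 0 of 9; 0% of 14942 regions of the genome), 8 had an unadjusted p under 0.05, and DESeq2 called 5 (15.3% of the genome's regions). The region of LGALS13, chr19:39587101-39628500, had 574 to 727 CPM in DOX and 632 to 1670 in H2O libraries (-0.57, SE 0.18, adjusted p = 0.117). The smallest p-values were at CLC, chr19:39733101-39766400 (-0.62, SE 0.19, adjusted p = 0.113), and at chr19:40119301-40139600, which holds the vomeronasal receptor pseudogene VN1R96P (-1.08, SE 0.34, adjusted p = 0.113). The H2O replicate 3 libraries were the highest in the LGALS13 and CLC regions, and they are also the shallowest of the 12. Without shDPPA4 H2O replicate 1, edgeR called 7 of 9, CLC among them (-0.81, adjusted p = 0.00786), where 20% of all regions of the genome were called. In shDPPA2, shDPPA4 and shDPPA2+4 the medians were -0.49, -0.63 and -0.57, with 0, 3 and 0 regions at unadjusted p under 0.05, 0 called (0% of the genome in each) and 0 by DESeq2.

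For H2AK119ub, 14 of 675 merged regions could be tested, with a median of 0.00 (7 of 14 negative), against -0.28 on the rest of chromosome 19. None was called (edgeR, 0% of 6161 regions), 3 had an unadjusted p under 0.05, and DESeq2 called 0. Regions that lacked a filtered peak in even 1 of the 12 libraries were not tested. The count of 0 called therefore cannot speak to peaks lost or gained with DOX. The ZFP36 promoter, for one, was marked in 6 of 6 H2O libraries and in neither shDPPA4 DOX library, where deposited peaks below the thresholds lay. It was also unmarked in shDPPA2 DOX replicate 3, with such a deposited peak. In shDPPA2 DOX replicate 1 and both shDPPA2+4 DOX libraries it was marked. The number of such promoters is not given here. Scaled by total peak reads in place of TMM, the median of all tested regions of the genome moved to -0.28, and that of the interval to -0.27. The smallest p-values were at LRFN1, chr19:39302701-39336500 (-1.60, SE 0.49, adjusted p = 0.158), and next to CLC, overlapping its end, at chr19:39718501-39732000 (1.10, SE 0.45, adjusted p = 0.204). The region next to CLC had 635, 532 and 391 CPM in the DOX replicate 3 libraries of shDPPA2, shDPPA4 and shDPPA2+4, 55.7, 339 and 192 in those of DOX replicate 1, and 60 to 245 in H2O libraries. By peak bases over the genome, these 3 DOX replicate 3 lists were nearest to H3K27me3 among the other targets (median Jaccard index, the shared over the joint peak bases, 0.136 to 0.152, against 0.197 to 0.255 with other H2AK119ub lists), whereas the other 9 knockdown lists of H2AK119ub were nearest to H3K4me3. The part of these libraries in the difference was not tested. Without the 3 DOX replicate 3 libraries, an alternative chosen after the data were seen, LRFN1 had -1.84. That fit leaves 1 DOX library per line. Within lines 0 regions were called (0% of the genome in each), with 1, 2 and 1 at unadjusted p under 0.05 in shDPPA2, shDPPA4 and shDPPA2+4, and DESeq2 called 1 in shDPPA2, the region of BLVRB and SPTBN4 (chr19:40462801-40470900), where edgeR gave -1.17 (SE 0.42, adjusted p = 0.219). The share of the genome's regions that DESeq2 called in shDPPA2 is not given here. A region in C19orf47 (chr19:40319701-40324600) had 1.12 in shDPPA2, 1.48 in shDPPA4 and -1.68 in shDPPA2+4, and one in RYR1 (chr19:38507501-38538700) 1.04 in shDPPA2+4, none past an adjusted p of 0.05.

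The second comparison asked how the marks differed after A-485. The share of H3K27ac peak reads in the interval was 1.49 and 1.93% in A-485 libraries, against 1.26 and 1.81% in DMSO libraries (exact permutation test, p = 0.667, where 2 against 2 allows 0.333 at best). Covered length was 241 and 318 kb in A-485 and 415 and 1421 kb in DMSO libraries (exact p = 0.333). DMSO replicate 4 stood apart, with 112108 filtered peaks in the genome and a widest peak of 81 kb in the interval, whereas the other 3 libraries had 25946 to 33889.

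H3K27ac was marked in 0 of 2 A-485 and 2 of 2 DMSO libraries at 7 promoters, those of ZNF573, RYR1, RINL, ACP7, NCCRP1, DLL3 and SELENOV, and at 0 promoters the other way round. Of the promoters marked in any H3K27ac library, 7 of 81 in the interval are 8.64%, near the 10.1% (1451 of 14396) of other genes, which had 0 the other way round as well. A deposited peak below the thresholds lay at 10 of the 14 A-485 values. Of 516 merged H3K27ac regions 48 could be tested, with a median of -0.23 (34 of 48 negative), against -0.30 on the rest of chromosome 19. None was called (edgeR, 0% of 8967), 5 had an unadjusted p under 0.05, and DESeq2 called 1, the region of DPF1, a neuronal chromatin remodelling subunit gene (chr19:38205101-38241600), with 139 and 225 reads in A-485 and 809 and 2482 in DMSO libraries (edgeR fold 0.5, SE 0.35 on the log2 scale, adjusted p = 0.645, DESeq2 adjusted p = 0.0332). The share of the genome's regions that DESeq2 called is not given here. Regions without a filtered peak in every library were not tested, so sites lost with A-485 are not covered. The region with the smallest p lay in ACTN4, chr19:38654001-38673400, with 39 and 99 reads in A-485 and 259 and 1225 in DMSO libraries (-1.19, SE 0.37, adjusted p = 0.627), a value that was 0.27 without DMSO replicate 4. The region of SELENOV had 45 and 148 reads in A-485 and 185 and 1733 in DMSO libraries (-0.82, SE 0.41, adjusted p = 0.774). By list, values were negative for all 9 regions of nerve, muscle and testis genes (median -0.82) and positive for all 5 of zinc finger genes (median 0.36), with 0 past the threshold in either. These signs are relative to TMM scaling: filtered peaks held 780375 and 603895 reads in A-485 and 2709073 and 5647079 in DMSO libraries. The SELENOV region had 80.6 CPM in A-485 and 92.7 in DMSO replicate 2, and 377 and 979 in replicate 4. The part of DMSO replicate 4 in the list values was not tested.

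For H2AK119ub the share was 1.03 and 2.36% in A-485 and 0.813 and 1.18% in DMSO libraries (exact permutation p = 0.667, 0.333 at best). By peak bases, A-485 replicate 3 and DMSO replicate 3 were nearer to the SUZ12 list than to other parental H2AK119ub lists. Their Jaccard index was 0.164 and 0.159 with SUZ12, against medians of 0.134 and 0.12. With a peak required in every library, 24 of 700 regions were tested and 0 called (edgeR, 0% of 4515; 0 at unadjusted p under 0.05 and 0 by DESeq2), with a median of 0.03. Scaled by total peak reads, the genome's median was -0.25 and the interval's -0.23. The 2 with the smallest p were one that lay between the end of MED29, which it overlapped, and the start of ZFP36 (chr19:39400101-39406600, -0.76, adjusted p = 0.908), and one in FBXO27 (chr19:38989801-38993000, -0.97, adjusted p = 0.908). With a peak required in 2 libraries only, 20 of 207 regions of the interval were called, 19 higher and 1 lower with A-485, where 0.233% of 23593 regions of the genome were. A library without a filtered peak in a region counts 0 there, so these calls follow in part from the filter. That filter kept 51.8 and 51% of the interval's deposited H2AK119ub peaks in A-485 and 34 and 26.9% in DMSO libraries. The value between MED29 and ZFP36 was 0.42 without DMSO replicate 4 and 0.31 without A-485 replicate 3. DMSO replicate 4, with 19344 peaks the smallest list of the series, had no filtered peak at DLL3 and SELENOV, where A-485 libraries had 43.2 and 35.4 reads per kb at DLL3 and 55.1 and 40.8 at SELENOV, against 50.5 and 55.9 in DMSO replicate 3 at DLL3 and SELENOV. It held a deposited peak below the threshold at both.

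For H3K27me3 the share was 0.238 ± 0.114% in A-485 and 0.292 ± 0.25% in DMSO libraries (SD, n = 3 each; exact permutation test, p = 1, 0.1 at best). Of 143 regions 10 were tested, with a median of -0.04, and 0 were called (edgeR, 0% of 8822; 0 at unadjusted p under 0.05 and 0 by DESeq2). The 2 with the smallest p lay next to CLC, overlapping its end (chr19:39717901-39732100, 0.72, SE 0.40, adjusted p = 0.882) and proximal to LGALS13 (chr19:39562301-39586700, 0.88, SE 0.50, adjusted p = 0.882). DMSO replicate 4 was nearer by peak bases to the SUZ12 list (Jaccard index 0.0977) than to other parental H3K27me3 lists (median 0.0684).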

How the data were processed

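ChIP-seq with a mouse spike-in (E14 cells, 10%) had been made from NCI-H661 cells in 59 samples, of which 51 have a peak list and 8 are inputs without a file. Per the labels and the study's methods, the authors trimmed reads with Trim Galore 0.6.6, aligned them with BWA 0.7.13 to hg38 and mm10, and marked duplicates with Picard 2.6.0. Peaks were called with EPIC2 in bins of 100 bp against an input, per library. SUZ12 is stated as called with MACS2, but its columns are those of EPIC2. The deposited lists give, for each peak, ChIP and input read counts, a p-value and an FDR, a score and a log2 fold over input. The deposited counts were not scaled by the spike-in, and it was not used here, so that a change over the whole genome cannot be seen. The study left out blacklisted regions of the genome, a step that was not taken here.

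Peaks were kept at log2 fold above 1 and FDR under 0.05, the thresholds of the study. The share of peak reads is the ChIP count in filtered peaks of the interval as a percent of that of the library. Input density in 100 kb bins was taken where 26 libraries had a value. Peaks of a target were merged across libraries, counts were assigned to merged regions, and regions that had a peak in all libraries of the fit and averaged at least 10 reads were fitted by edgeR 4.0.16 quasi-likelihood in R 4.3.3 with TMM scaling, line and treatment, and the replicate as a block, adjusted by Benjamini-Hochberg over all regions of the genome. A region was called at adjusted p under 0.05 and a log2 fold change of at least 0.5 in size. Since regions were defined by peaks and counts by called peaks, a region's count also moves with how much was called. Regions without a peak in every library were left out, so 0 called does not cover peaks lost or gained between treatments. DESeq2 1.42.0, other filters and left-out libraries were alternatives. The fit was tested on simulated data. Shares and lengths were compared by exact permutation tests in SciPy 1.17.1 (Python 3.11.15, pandas 2.3.3, NumPy 2.4.6), two-sided. Counting error is small at these depths, and reads are not independent molecules.

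The replicates were blocked because the study's methods state that each was made as a complete batch. The deviations of DOX and H2O libraries of the same number correlated at 0.42 to 0.52 (H3K4me3), 0.30 to 0.50 (H2AK119ub) and -0.09 to 0.31 (H3K27me3), and those of A-485 and DMSO libraries at 0.36 to 0.54. Gene starts are from GENCODE 44. The named genes are SELENOV and DLL3, the genes at the ends of the raised run, the 5 strongest promoters per target, per contrast the regions past the threshold or the 2 with the smallest p, and the members of the gene lists. H3K4me3 regions past the adjusted p alone and TTC9B's marks were named after their values were seen. The interval and the lists were chosen with earlier results of these data known. All columns used belong to a sample.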

Additional observations from a re-analysis of the deposited data

Results flagged for a closer look

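The length under H3K27me3 peaks in the interval moved in opposite directions in both pairs of each of 2 lines. In shDPPA4 it was 216 and 191 kb in DOX and 212 and 185 kb in H2O libraries, and in shDPPA2 218 and 202 kb in DOX and 229 and 204 kb in H2O libraries. The mean differences of the lines were 11.6 kb apart. The difference was not tested. It holds for filtered peaks only: over all deposited peaks shDPPA4 had 264 and 242 kb in DOX and 268 and 193 kb in H2O libraries, and shDPPA2 274 and 220 kb in DOX and 280 and 217 kb in H2O libraries, so that the 2 pairs of a line differed in direction.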

How the results depend on the processing

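Of the main results under their alternatives, 348 values kept their direction and call or stayed within their spread, 31 moved, 2 reversed, 2 gained and 2 lost the threshold; the causes were not tested. Without the replicate block the share differences (percentage points) were -0.0703 for H3K4me3 (exact p = 0.0833), -0.144 for H3K27me3 (exact p = 0.0278) and -0.552 for H2AK119ub (exact p = 0.0463), and the H3K4me3 length difference was 16.9 kb (exact p = 0.0833); of the calls compared, the block changed no other than these and the counts of lower H3K4me3 regions (mean of lines and shDPPA2), which were 0 without it. The count for the mean of lines was 13 with a peak in at least 2 libraries and 13 to 40 with 1 library left out. Over all deposited peaks the length differences were 10.8 kb (H3K27me3) and 194 kb (H2AK119ub), 81 promoters had H2AK119ub, and the H3K27ac share difference for A-485 was 1.12. Relative to chromosome 19 peak reads the A-485 differences were 8.18 for H3K27ac, 5.06 for H2AK119ub and -0.71 for H3K27me3. The input ratio was 2.8 over bins, 2.78 in H3K4me3 and 1.34 in SUZ12. With 1000 bp required, 5 promoters had SUZ12.

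Called H3K27me3 regions numbered 5 with DESeq2, 0 to 7 with 1 library left out for the mean of lines, and 0 to 2 for shDPPA4. For H2AK119ub they numbered 1 with DESeq2 or a peak in 2 libraries in shDPPA2. For the mean of lines they numbered 2 with a peak in 2 libraries and 6 over all deposited peaks. Some of the H2AK119ub counts also changed with 1 library left out or without the DOX replicate 3 libraries (added after the data were seen). Such fits leave 1 library in a group. For A-485 they numbered 1 with DESeq2 for H3K27ac, and 20 with a peak in 2 libraries and 0 to 1 with 1 library left out for H2AK119ub. Where the genome's share under an alternative is not given, these counts describe how calls vary and are no result about the interval. Where a peak in 2 libraries sufficed, a library without a filtered peak counts 0 in a region, so those calls follow in part from the filter. Single regions that turned were the one between MED29 and ZFP36 for H2AK119ub (-2.22 to 0.42 with 1 library left out), ACTN4 for H3K27ac (-2.56 to 0.27, 0.27 without DMSO replicate 4), and over all deposited peaks H3K27me3 next to CLC (-0.03) and proximal to LGALS13 (-0.13).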
